A study of Mus musculus with 6 samples.

Results

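The 30 genes described here break down the branched-chain amino acids leucine, isoleucine and valine, carry the propionyl-CoA formed from them into the citric acid cycle, or use and form ketone bodies. They were taken by symbol from a list of enzymes, regulators and cofactor-handling proteins of these routes. All 30 were found among the 20295 genes of the deposited count table. A filter on low counts kept 29 of them among 11732 tested genes, and the 1 left out was Bdh1.

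RNA was sequenced from adipocytes that had formed in vitro from stromal-vascular cells (the mixture left once mature fat cells are removed) of 3 fat depots of male NMRI mice aged 4 to 5 weeks. The depots were brown fat (BAT, pooled from interscapular, cervical and axillary fat), inguinal white fat (iWAT) and epididymal white fat (eWAT), with 2 libraries each. All cultures, whatever their depot, received rosiglitazone (1 µM), an activator of Pparg, with insulin (30 nM) in medium holding 10% newborn calf serum. Harvest was 8 days after plating, while the sample names in the count table carry a day 7 tag, and cultures were kept only where over 50% of cells had differentiated. No agent and no genetic change separated the depots, and the cultures were models of adipocytes formed in a dish, not of cells taken from tissue. The labels do not say that the replicates came from separate animals or cultures, so the spread behind each p-value is that of these samples alone and may be technical.

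Branched-chain amino acids first give up their amino group to a transaminase, and the branched-chain keto acid dehydrogenase complex (BCKDH) in mitochondria then commits the resulting keto acids to oxidation. Leucine carbon ends in acetyl-CoA and acetoacetate, valine carbon in propionyl-CoA and isoleucine carbon in both acetyl-CoA and propionyl-CoA, which biotin-dependent and cobalamin-dependent enzymes turn into succinyl-CoA. Adipocytes are known to use these amino acids as a source of acetyl-CoA and odd-chain fatty acids, and brown fat is known to burn them during thermogenesis.

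Promoter sequences are shown for Ppm1k, Hibch and Mcee, genes that were higher in BAT than in eWAT adipocytes and had an entry in the RefSeq promoter table (build GRCm38.p6, from 250 bases before to 50 bases after the annotated start). The windows lie at chr6:57535438-57535737 on the minus strand for Ppm1k, chr1:52844788-52845087 on the plus strand for Hibch and chr7:64392372-64392671 on the plus strand for Mcee. Each is written 5′ to 3′ along the gene, and capitals mark the letters AGGTCA (the core motif of nuclear receptors), GGGCGG (the GC box) and CCAAT (the CCAAT box) on either strand, so that GGGCGG on the other strand reads CCGCCC and CCAAT reads ATTGG.
Ppm1k: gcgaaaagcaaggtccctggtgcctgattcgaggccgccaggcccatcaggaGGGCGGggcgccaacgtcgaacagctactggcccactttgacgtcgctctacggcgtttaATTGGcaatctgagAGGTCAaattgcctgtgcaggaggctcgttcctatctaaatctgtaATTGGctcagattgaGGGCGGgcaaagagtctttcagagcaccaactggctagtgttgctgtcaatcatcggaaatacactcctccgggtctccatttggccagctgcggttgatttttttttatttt
Hibch: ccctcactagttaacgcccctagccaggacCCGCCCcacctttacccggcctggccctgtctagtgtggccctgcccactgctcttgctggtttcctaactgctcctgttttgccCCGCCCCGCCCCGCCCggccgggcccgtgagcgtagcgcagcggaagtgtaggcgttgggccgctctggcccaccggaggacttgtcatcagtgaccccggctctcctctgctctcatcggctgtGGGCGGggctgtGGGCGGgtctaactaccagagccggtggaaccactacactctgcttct
Mcee: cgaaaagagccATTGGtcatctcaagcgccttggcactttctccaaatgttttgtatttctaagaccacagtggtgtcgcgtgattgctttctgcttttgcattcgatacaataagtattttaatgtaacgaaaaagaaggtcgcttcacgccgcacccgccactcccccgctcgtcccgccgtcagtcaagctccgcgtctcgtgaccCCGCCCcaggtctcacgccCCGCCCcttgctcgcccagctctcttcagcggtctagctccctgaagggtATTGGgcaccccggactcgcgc
The Ppm1k window held 1 AGGTCA, 2 GC boxes and 2 CCAAT boxes. Hibch had 6 GC boxes and neither of the other motifs, and Mcee had 2 GC boxes, 2 CCAAT boxes and no AGGTCA.

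Entries were found for 25 of the 30 genes, and Dbt, Abat, Mut, Mmadhc and Acat1 had none. Of these 25, 6 (24%) held AGGTCA on either strand, against 18.1% of the 27025 genes in the table. Those 6 were Bcat1, Bckdhb, Ppm1k, Hibadh, Aldh6a1 and Pcca. A GC box stood in 15 (60%), against 38.2% of all genes, and CCAAT in 15 (60%), against 41.1%. The promoters of these genes were also richer in G and C, with a median of 55.5% against 52.7% over all promoters in the table, and in CpG, with a median of 15.5 sites against 7. The letters TGCGCA, the core of the NRF1 motif, were in 3 of the 25 (12%), against 8.79% of all genes, and CCGGAAG, an ETS-family motif, in 1 (4%), against 9.93%. TNAAGGTCA (the extended motif of oestrogen-related receptors), which contains AGGTCA, TGACGTCA (the CREB site) and an exact direct repeat of a pair of AGGTCA with 1 base between were in none of the 25, against 1.43%, 2.03% and 0.0481% of all genes, all counted on both strands. A missing match says only that these letters are not in these windows.

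Library totals ran from 2889038 to 4807449 counts, and 3 counts, the upper limit set for a count of 0, came to 0.634 to 1.15 CPM (counts normalised to library size), which covers counting error only. The labelled brown fat origin held in the markers, and no markers of inguinal or epididymal identity were examined. Summed over 12 brown fat markers the level was 6872 and 12387 CPM in the BAT libraries, 2132 and 1908 CPM in iWAT, and 502 and 698 CPM in eWAT. Ucp1, the uncoupling protein of brown fat, made up most of the BAT sums. It stood at 4924 and 9294 CPM in BAT against 59.6 and 62.9 CPM in eWAT. The 10 general adipocyte markers summed to 33146 and 44271 CPM in BAT, 29276 and 28038 CPM in iWAT and 25693 and 30246 CPM in eWAT. Markers of other cells were unevenly spread. The 17 macrophage markers summed to 493 and 110 CPM in BAT, 740 and 222 CPM in iWAT and 5380 and 2446 CPM in eWAT, and Cd163 and Laptm5 were at 0 in BAT replicate 2. The 16 preadipocyte and fibroblast markers summed to 6612 and 4248 CPM in BAT, 26785 and 24515 CPM in iWAT and 22551 and 21265 CPM in eWAT. Summed levels ran from 17.1 to 46.8 CPM for 12 skeletal muscle markers and from 69.2 to 231 CPM for 8 endothelial markers. Whether fewer cells of a type or less RNA per cell lay behind a lower level cannot be told apart in bulk libraries.

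Most of the pathway stood highest in adipocytes of brown fat origin. Of the 29 tested genes, 22 had both BAT libraries above all 4 iWAT and eWAT libraries, while 18.4% of all tested genes did. Bdh2, at 9 to 42 counts a library and with no edgeR call, had both BAT libraries below the other 4. How many of all tested genes had that order was not counted. Bcat1, Bcat2, Ivd, Mccc1, Abat and Pcca had other orders. Summed over the 30 genes, the level was 5719 and 7985 CPM in BAT, 4101 and 4298 CPM in iWAT and 3531 and 4412 CPM in eWAT. Both BAT libraries were above the other 4 in these sums and in the summed brown fat and general adipocyte markers. Gene by gene, only 2 of the 10 general adipocyte markers had a positive log2 difference for BAT minus eWAT (median -0.11). For BAT minus iWAT 5 of these 10 did (median -0.05). Both BAT libraries were below the other 4 in the summed preadipocyte and fibroblast markers. Within the white depots the sums of the 30 genes overlapped, with eWAT replicate 2 the highest and eWAT replicate 1 the lowest. Gene by gene, 23 of the 29 had a positive log2 difference for iWAT minus eWAT, against 6013 of all 11732 tested genes. The summed brown fat markers did not overlap there, at 2132 and 1908 CPM in iWAT against 502 and 698 CPM in eWAT. The part of all these markers in the differences was not tested.

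**Figure D1:**
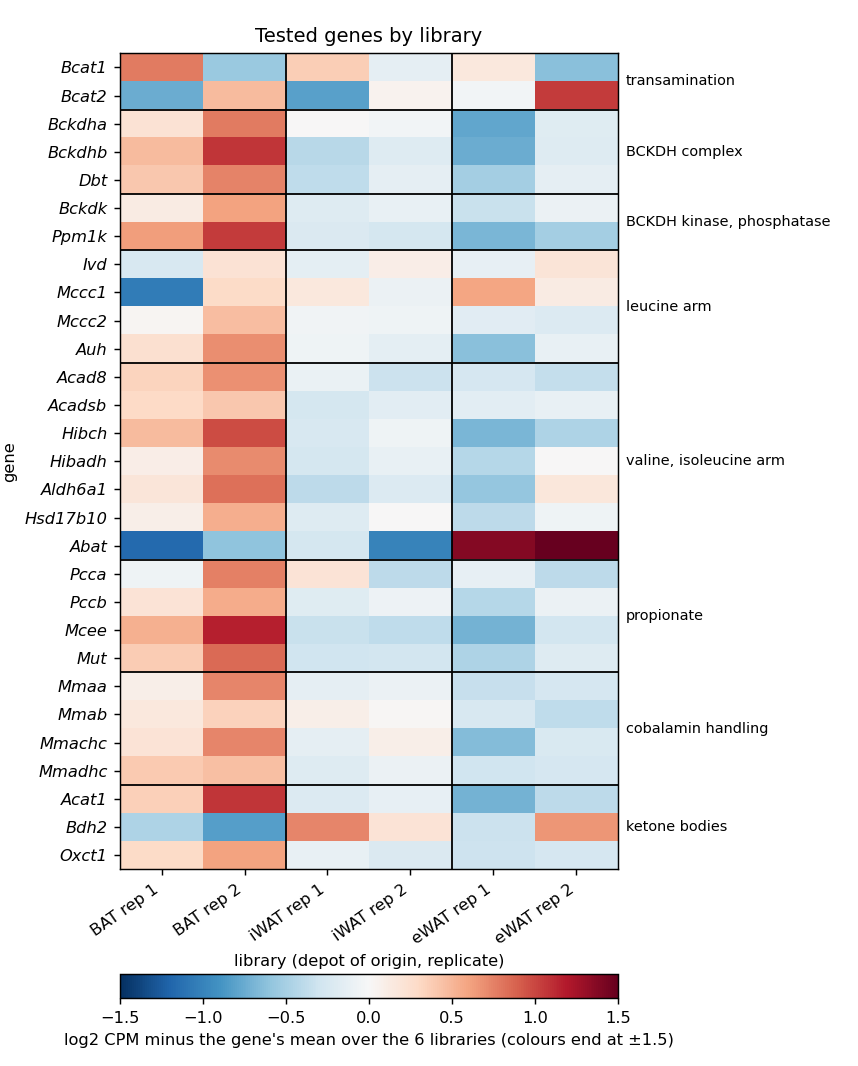
Heat map of the 29 tested genes (rows, grouped by role) in the 6 libraries (columns, BAT, iWAT and eWAT), coloured by log2 CPM minus each gene's mean over the 6 libraries. Red marks libraries above a gene's mean, and 22 genes have both BAT libraries above the other 4, while Abat is highest in both eWAT libraries.

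In BAT against eWAT adipocytes, 5 of the 29 genes passed the edgeR quasi-likelihood test at an adjusted p below 0.05 over all 11732 genes. Ppm1k, Mcee, Hibch and Acat1 were higher in BAT, where 2.71% of all tested genes were called higher, and Abat was lower, where 3.75% of all tested genes were called lower. A further count, of genes at an unadjusted p below 0.05, gave 20 of the 29, against 25.9% of all genes. DESeq2 called 11 higher, where it called 5.11% of all genes higher. Both BAT libraries lay above both eWAT libraries for 23 of the 29 genes, against 26.8% of all tested genes, and below both for Abat and Bdh2, against 28.5%. The median log2 difference of the 29 was 0.70, beside -0.03 over all genes tested. Of the 29, 24 were positive, against 5581 of the 11732. No gene of the 29 passed the edgeR test in BAT against iWAT, where 0.145% of all genes were called higher and 0.895% lower, although 14 had an unadjusted p below 0.05, against 16.6% of all genes, and DESeq2 called 6 higher, against 1.53% of all genes. In that contrast 22 of the 29 did not overlap with BAT higher, against 23.9% of all genes, and Bdh2 did not overlap with BAT lower, against 24.1%. Its median log2 difference was 0.54 for the 29 genes, with 26 positive, and -0.02 for all genes, with 5709 of 11732 positive. For iWAT against eWAT edgeR called none of the 29 and 0% of all genes in either direction, with 1 of the 29 (Abat) at an unadjusted p below 0.05, against 9.34% of all genes. There 10 of the 29 had both iWAT libraries above both eWAT libraries, against 19.2% of all genes, and Abat alone had both below, against 18.8%. The medians were 0.13 for the 29 genes, with 23 positive, and 0.01 for all genes, with 6013 of 11732 positive. The 3 contrasts share libraries and are not independent of one another.

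The number of calls depended on how replicate numbers were treated. The labels do not state that libraries of the same number belong together. With the replicate number as a block, edgeR called 20 of the 29 genes higher in BAT than in eWAT, against 10.9% of all genes, and Abat and Bcat2 lower, against 12.8%. The tested genes it left uncalled there were Bcat1, Ivd, Mccc1, Mccc2, Pcca, Mmaa and Bdh2. In BAT against iWAT the blocked fit called 11 higher, against 4.55% of all genes, and 0 lower, against 5.89%. Those 11 were Bckdhb, Dbt, Ppm1k, Acad8, Acadsb, Hibch, Aldh6a1, Mcee, Mut, Mmadhc and Acat1. In iWAT against eWAT it called 0 higher, against 1.66% of all genes, and Abat and Bcat2 lower, against 3.14%. The edgeR values given for single genes below are without the block unless it is named.

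**Figure D2:**
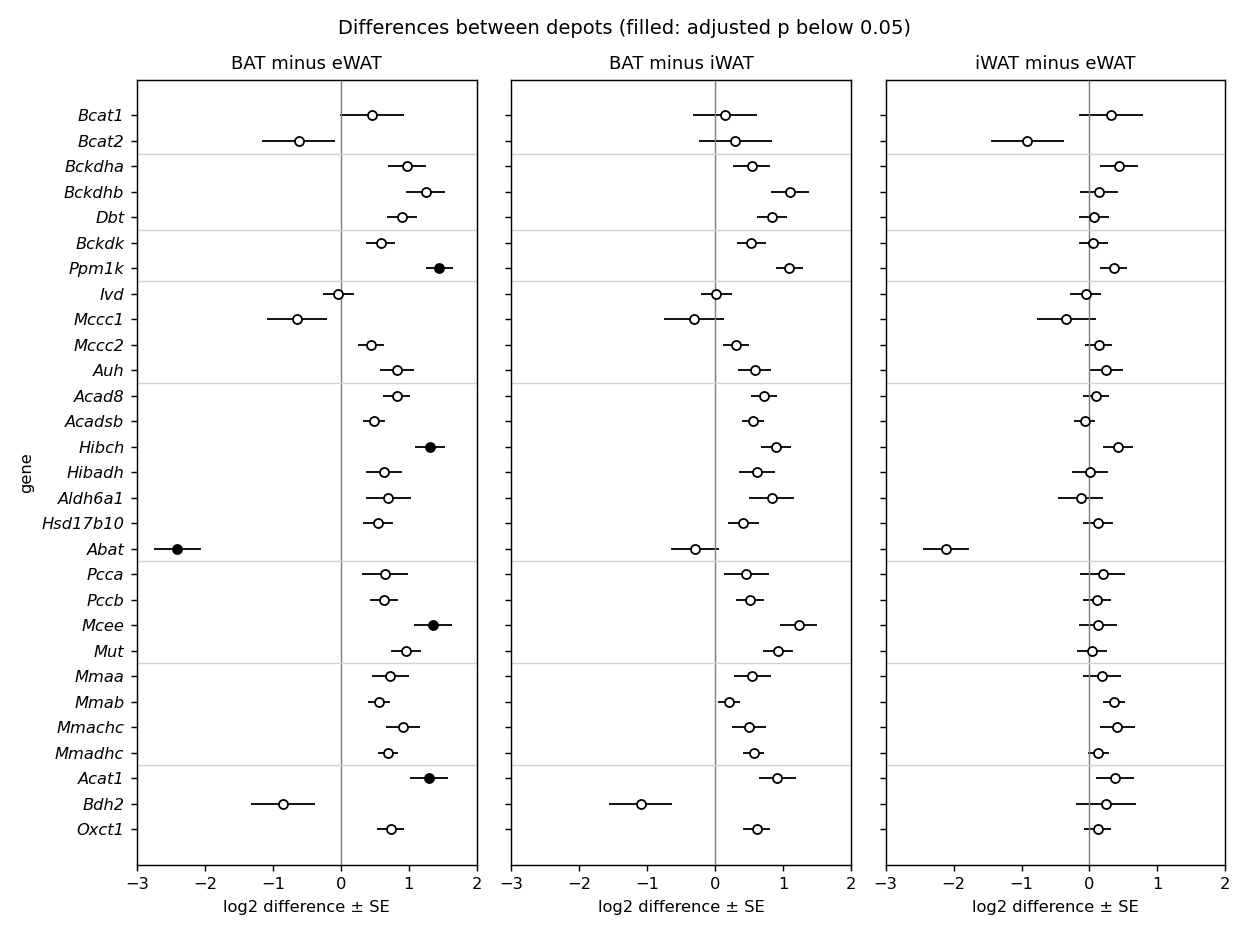
Log2 difference ± SE of each tested gene (rows) in BAT minus eWAT, BAT minus iWAT and iWAT minus eWAT (panels), from the edgeR fit of 6 libraries, with filled points at an adjusted p below 0.05. The filled points are Ppm1k, Mcee, Hibch, Acat1 and Abat in BAT minus eWAT, and most open points of both BAT panels lie right of 0.

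Neither transaminase gene, at the entry step, passed the edgeR test between depots. Bcat1 encodes the cytosolic transaminase and Bcat2 the mitochondrial one. Bcat1 had 68.7 and 27.1 CPM in BAT, 51.5 and 36.5 CPM in iWAT and 44.5 and 25.9 CPM in eWAT. Bcat2 had 61.1 and 142 CPM in BAT, 58.2 and 106 CPM in iWAT and 99.2 and 211 CPM in eWAT. Every depot overlapped every other for both genes, and in each depot Bcat1 was higher in replicate 1 and Bcat2 higher in replicate 2. Per kb of counted length Bcat2 was the more abundant, at a mean of 57.4 CPM per kb in BAT, 46.4 in iWAT and 87.7 in eWAT, against 6.10 CPM per kb in BAT, 5.6 in iWAT and 4.48 in eWAT for Bcat1. For BAT minus eWAT the log2 difference was 0.46 ± 0.47 (SE) for Bcat1 (edgeR adjusted p = 0.594) and -0.62 ± 0.54 for Bcat2 (edgeR adjusted p = 0.523), and for iWAT minus eWAT Bcat2 was at -0.92 ± 0.54 (edgeR adjusted p = 0.784). With the replicate number as a block, Bcat2 passed in both (edgeR adjusted p = 0.0194 for BAT minus eWAT and 0.0171 for iWAT minus eWAT). The authors' deposited table also called Bcat2 in both, at log2 fold changes of -0.64 and -0.90.

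Each of the 3 BCKDH complex genes described here stood higher in BAT without passing the edgeR threshold. Bckdha and Bckdhb encode the alpha and beta subunits of the decarboxylase and Dbt the core transacylase. Bckdhb had 292 and 445 CPM in BAT, 158 and 185 CPM in iWAT and 126 and 184 CPM in eWAT. Bckdha had 233 and 342 CPM in BAT, 202 and 194 CPM in iWAT and 117 and 176 CPM in eWAT. Dbt had 403 and 510 CPM in BAT, 235 and 277 CPM in iWAT and 214 and 276 CPM in eWAT. Both BAT libraries were the highest of the 6 for all 3 genes, as for 18.4% of all tested genes. The log2 differences for BAT minus eWAT were 1.25 ± 0.29 for Bckdhb, 0.97 ± 0.27 for Bckdha and 0.90 ± 0.22 for Dbt, with edgeR adjusted p-values of 0.0554, 0.0874 and 0.0656, and DESeq2 called all 3, beside 5.11% of all tested genes called higher. Against iWAT they were 1.11 ± 0.28, 0.54 ± 0.27 and 0.84 ± 0.22, with edgeR adjusted p-values of 0.148, 0.381 and 0.155. Between iWAT and eWAT the largest of the 3 was that of Bckdha, at 0.44 ± 0.27 (edgeR adjusted p = 0.816), with its libraries not overlapping.

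Of the enzymes that switch the complex, Ppm1k passed the edgeR test in BAT against eWAT and Bckdk did not. Ppm1k is the mitochondrial phosphatase that activates BCKDH, and Bckdk is the kinase that inactivates it. Ppm1k (NM_175523, chr6:57456495-57485420 in mm9 as deposited, minus strand) had 129 and 172 CPM in BAT, 71.4 and 69.6 CPM in iWAT and 51.7 and 58.3 CPM in eWAT, so that no 2 depots overlapped. It was 2.74-fold higher in BAT than in eWAT, a log2 difference of 1.45 ± 0.20 (95% interval 0.97 to 1.94, edgeR adjusted p = 0.0230), and 2.44% of all tested genes had a difference as high or higher. Its difference from iWAT was 1.09 ± 0.20 (edgeR adjusted p = 0.0779). Bckdk had 125 and 174 CPM in BAT, 99.8 and 106 CPM in iWAT and 90.9 and 108 CPM in eWAT. Its log2 difference was 0.59 ± 0.21 for BAT minus eWAT (edgeR adjusted p = 0.152) and 0.53 ± 0.21 for BAT minus iWAT (edgeR adjusted p = 0.287). The ratio of Bckdk to Ppm1k, each per kb, was 1.88 and 1.96 in BAT, 2.72 and 2.97 in iWAT and 3.42 and 3.60 in eWAT, lowest in BAT and highest in eWAT with no overlap between any 2 depots. Ratios are given as values with no test, and an exact permutation test of 2 against 2 libraries cannot give a two-sided p below 0.333.

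Ratios between subunits of the complex were likewise not tested. The Bckdha to Bckdhb ratio per kb was 0.628 and 0.606 in BAT, 1.01 and 0.827 in iWAT and 0.729 and 0.753 in eWAT. The Dbt to Bckdhb ratio was 0.586 and 0.487 in BAT, 0.632 and 0.636 in iWAT and 0.718 and 0.638 in eWAT. Both ratios were lowest in the BAT libraries, but without BAT replicate 2 the log2 difference of the Dbt to Bckdhb ratio for BAT minus iWAT was -0.11, against -0.25 with all libraries. Bckdhb was the most abundant of the 3 per kb in BAT, at a mean of 264 CPM per kb, against 162 for Bckdha and 139 for Dbt.

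**Figure D3:**
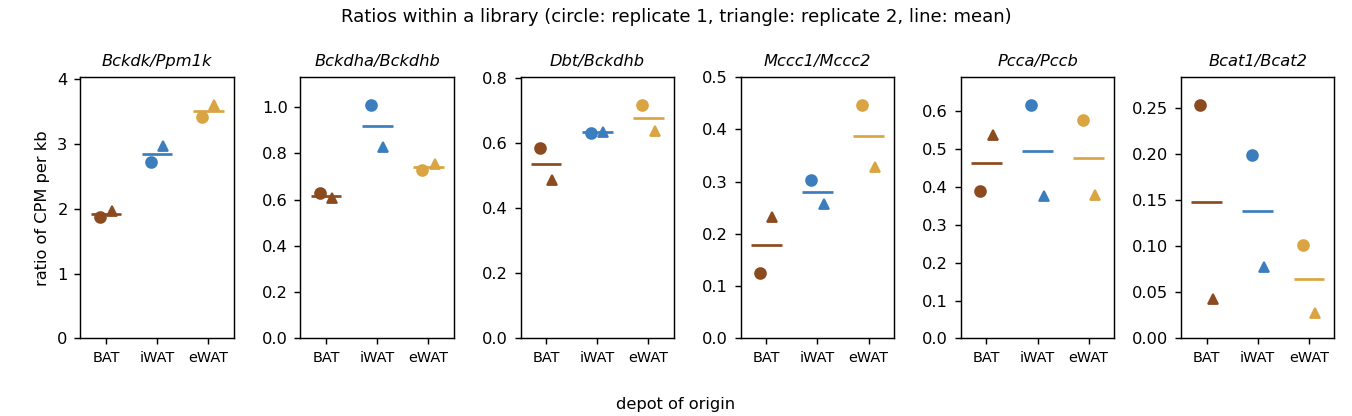
Ratios of 2 genes' CPM per kb (y axis, from 0) in each library of BAT, iWAT and eWAT (x axis), with replicate 1 as circles, replicate 2 as triangles and the mean as a line. The Bckdk to Ppm1k ratio is 1.88 and 1.96 in BAT, 2.72 and 2.97 in iWAT and 3.42 and 3.60 in eWAT without overlap, while Pcca to Pccb and Bcat1 to Bcat2 overlap between depots.

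The leucine arm had no call by edgeR in any contrast, and its genes went in different directions. Ivd, isovaleryl-CoA dehydrogenase, ranged from 55.6 to 76.5 CPM in BAT, 59.4 to 70.6 CPM in iWAT and 60.1 to 75.1 CPM in eWAT. Its log2 difference for BAT minus eWAT was -0.04 ± 0.23, with a 95% interval from -0.59 to 0.51 that leaves room for moderate changes either way. Mccc1 and Mccc2 encode the subunits of methylcrotonyl-CoA carboxylase. Mccc1 had 11.4 and 28.7 CPM in BAT, 26.2 and 22.1 CPM in iWAT and 35.4 and 25.6 CPM in eWAT, with the depots overlapping, and its log2 difference for BAT minus eWAT was -0.64 ± 0.44 (edgeR adjusted p = 0.413). Mccc2 had 69.7 and 94.1 CPM in BAT, 66.2 and 65.6 CPM in iWAT and 60.6 and 59.4 CPM in eWAT, highest in both BAT libraries, with a log2 difference of 0.44 ± 0.19 (edgeR adjusted p = 0.213). The Mccc1 to Mccc2 ratio per kb was accordingly 0.125 and 0.233 in BAT, 0.303 and 0.258 in iWAT and 0.447 and 0.329 in eWAT, again without overlap. Auh, the hydratase after the carboxylase, lay between 44.5 and 111 CPM over the 6 libraries and differed by 0.83 ± 0.25 between BAT and eWAT (edgeR adjusted p = 0.0978).

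The valine and isoleucine arm held calls in both directions. Hibch, which frees 3-hydroxyisobutyrate from its CoA in the valine route (NM_146108, chr1:52901889-52977704 in mm9, plus strand), had 257 and 364 CPM in BAT, 156 and 176 CPM in iWAT and 115 and 134 CPM in eWAT. No 2 depots overlapped. It was 2.49-fold higher in BAT than in eWAT, a log2 difference of 1.32 ± 0.22 (edgeR adjusted p = 0.0317), and differed from iWAT by 0.90 ± 0.22 (edgeR adjusted p = 0.14).

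Abat ran the other way. It encodes 4-aminobutyrate aminotransferase, best known for degrading the neurotransmitter GABA, which also acts on the valine-derived methylmalonate semialdehyde (NM_001170978, chr16:8513521-8621660 in mm9, plus strand). Abat had 6.97 and 10.3 CPM in BAT, 13.0 and 7.79 CPM in iWAT and 40.5 and 49.8 CPM in eWAT. Both eWAT libraries were well above the other 4, and BAT and iWAT overlapped. In BAT its fold against eWAT was 0.189, a log2 difference of -2.41 ± 0.35 (95% interval -3.25 to -1.57, edgeR adjusted p = 0.0247). In iWAT the log2 difference from eWAT was -2.11 ± 0.34 and missed the threshold with edgeR (adjusted p = 0.128), while DESeq2 called it at -2.12 (adjusted p = 0.000311), where DESeq2 called 1.6% of all tested genes lower. The authors' deposited table called Abat lower in both BAT and iWAT against eWAT. The 17 macrophage markers followed the same order. All had both BAT libraries below both eWAT libraries, against 28.5% of all genes, and both iWAT libraries below both eWAT libraries, against 18.8%. Of these markers edgeR called 9 lower in BAT against eWAT, where it called 3.75% of all genes lower. The part of the macrophage markers in the Abat difference was not tested.

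The other 5 genes of the arm were each highest in both BAT libraries, as were 18.4% of all tested genes, without passing the test. Aldh6a1, the dehydrogenase that makes propionyl-CoA from methylmalonate semialdehyde, ran from 349 to 927 CPM over the 6 libraries and differed by 0.70 ± 0.33 between BAT and eWAT. Hibadh, the 3-hydroxyisobutyrate dehydrogenase, ran from 247 to 543 CPM and differed by 0.63 ± 0.27. Acad8, the isobutyryl-CoA dehydrogenase of valine, ran from 52.0 to 107 CPM and differed by 0.82 ± 0.19. These were enzymes of the valine route. Acadsb, the isoleucine counterpart of Acad8, ran from 191 to 303 CPM with a difference of 0.49 ± 0.16. Hsd17b10, a later dehydrogenase of the isoleucine route, ran from 72.7 to 138 CPM with a difference of 0.55 ± 0.22. The edgeR adjusted p-values of these 5 for BAT minus eWAT ran from 0.0594 for Acad8 to 0.241 for Aldh6a1.

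**Figure D4:**
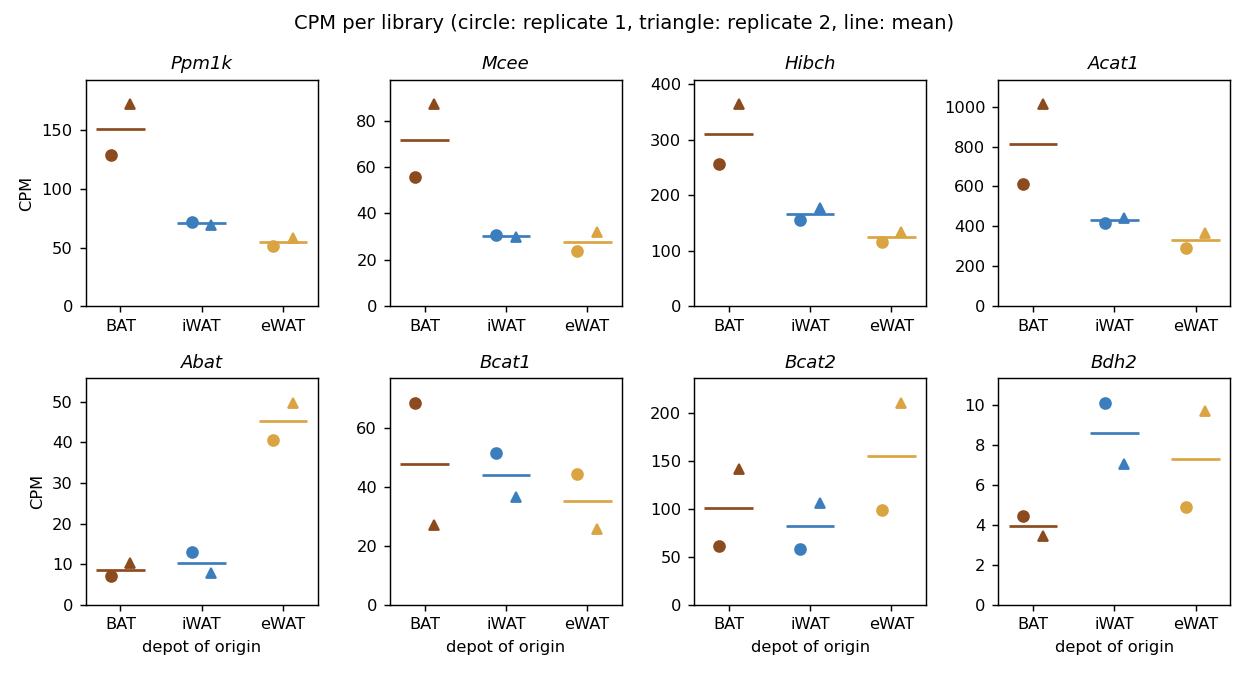
CPM (y axes, from 0) of 8 genes in each library of BAT, iWAT and eWAT (x axis), with replicate 1 as circles, replicate 2 as triangles and the mean as a line. Ppm1k, Mcee, Hibch and Acat1 are highest in both BAT libraries, Abat is highest in both eWAT libraries, and Bcat1 and Bcat2 are split by replicate number within each depot.

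The epimerase gene of propionyl-CoA disposal was called higher by edgeR in BAT than in eWAT, but not against iWAT. Mcee, methylmalonyl-CoA epimerase (NM_028626, chr7:71537656-71557005 in mm9, plus strand), had 55.8 and 87.2 CPM in BAT, 30.8 and 29.7 CPM in iWAT and 23.8 and 31.9 CPM in eWAT. Both BAT libraries exceeded the other 4, and iWAT and eWAT overlapped. Its level in BAT was 2.56-fold that in eWAT, a log2 difference of 1.36 ± 0.27 (edgeR adjusted p = 0.0424), and 2.35-fold that in iWAT, 1.23 ± 0.27 (edgeR adjusted p = 0.120), the largest difference of the 29 genes between BAT and iWAT. Pcca and Pccb encode the subunits of propionyl-CoA carboxylase. Pcca had 63.2 and 112 CPM in BAT, 76.5 and 50.5 CPM in iWAT and 60.6 and 50.3 CPM in eWAT. Pccb had 143 and 183 CPM in BAT, 109 and 118 CPM in iWAT and 92.5 and 117 CPM in eWAT. BAT overlapped iWAT for Pcca but was above both other depots for Pccb, and their log2 differences for BAT minus eWAT were 0.65 ± 0.33 (edgeR adjusted p = 0.280) and 0.63 ± 0.21 (edgeR adjusted p = 0.119). The Pcca to Pccb ratio per kb, at 0.390 and 0.538 in BAT, 0.616 and 0.376 in iWAT and 0.576 and 0.378 in eWAT, overlapped between all depots. Mut, the cobalamin-dependent mutase that yields succinyl-CoA, ran from 237 to 593 CPM, was highest in both BAT libraries and differed by 0.96 ± 0.22 between BAT and eWAT (edgeR adjusted p = 0.0575).

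The 4 genes that handle cobalamin had the same order across depots. Mmachc processes incoming cobalamin, Mmadhc directs it to its users, Mmab makes the adenosyl form and Mmaa loads it onto the mutase. For all 4, both BAT libraries lay above both iWAT libraries and both iWAT libraries above both eWAT libraries, an order that 10 of the 29 genes and 6.29% of all tested genes had. Their levels were from 33.8 to 88.3 CPM for Mmachc, from 90.4 to 152 CPM for Mmadhc, from 53.2 to 87.9 CPM for Mmab and from 17.0 to 35.9 CPM for Mmaa. The log2 differences for BAT minus eWAT were 0.92 ± 0.25, 0.70 ± 0.15, 0.56 ± 0.17 and 0.73 ± 0.27 in the same gene order. None passed the edgeR test, and the lowest adjusted p was 0.0503, for Mmadhc.

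Ketone body genes were split by level and direction. Acat1, the mitochondrial thiolase that splits acetoacetyl-CoA and also ends the isoleucine route (NM_144784, chr9:53388626-53418455 in mm9, minus strand), had 614 and 1013 CPM in BAT, 418 and 442 CPM in iWAT and 294 and 367 CPM in eWAT. No 2 depots overlapped. It was 2.46-fold higher in BAT than in eWAT, a log2 difference of 1.30 ± 0.28 (edgeR adjusted p = 0.0492), and differed from iWAT by 0.92 ± 0.28 (edgeR adjusted p = 0.193). Oxct1, the transferase that activates acetoacetate for oxidation, had 888 and 1110 CPM in BAT, 675 and 630.0 CPM in iWAT and 587 and 614 CPM in eWAT. It was highest in both BAT libraries, with a log2 difference from eWAT of 0.73 ± 0.20 (edgeR adjusted p = 0.0795). Per kb Oxct1 was the most abundant of the 30 genes in every depot, at means of 326 CPM per kb in BAT, 213 in iWAT and 196 in eWAT. Bdh1, the mitochondrial 3-hydroxybutyrate dehydrogenase, was near the detection limit, with 12 and 5 counts in BAT, 5 and 6 in iWAT and 10 and 3 in eWAT, and was the least abundant per kb in every depot. The Bdh1 to Oxct1 ratio per kb did not pass 0.00392 in any library and overlapped between all depots. Bdh2, a cytosolic dehydrogenase, was also low, with 21 and 9 counts in BAT, 42 and 28 in iWAT and 21 and 34 in eWAT. Bdh2 thus had 4.44 and 3.44 CPM in BAT, 10.1 and 7.04 CPM in iWAT and 4.89 and 9.67 CPM in eWAT. Both BAT libraries were the lowest of the 6, with log2 differences of -0.85 ± 0.47 from eWAT (edgeR adjusted p = 0.316) and -1.10 ± 0.47 from iWAT (edgeR adjusted p = 0.314).

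Several enzymes that these routes share with fatty acid oxidation and the citric acid cycle were also higher in BAT than in eWAT. Of 17 further genes of branched-chain amino acid transport and breakdown, edgeR called none lower in BAT than in eWAT, against 3.75% of all genes. It called 7 higher, against 2.71%. The 4 with the lowest adjusted p were Hadhb and Hadha, the subunits of the mitochondrial trifunctional protein, at log2 differences of 2.04 and 1.80, Acaa2, a thiolase, at 2.00, and Acadm, the medium-chain acyl-CoA dehydrogenase, at 1.30. The median of the 17 was 0.42, with 10 positive, against 5581 of all 11732 tested genes. Both BAT libraries lay above both eWAT libraries for 9 of the 17, against 26.8% of all genes. They lay below both for 3, against 28.5%. Against iWAT 1 of the 17, Hadhb, was called higher, at 1.42 ± 0.22 (edgeR adjusted p = 0.0497), where 0.145% of all genes were. Among 11 further propionate and cobalamin genes, 2 subunits of succinyl-CoA ligase were called higher in BAT than in eWAT, against 2.71% of all genes. Sucla2 differed by 2.16 ± 0.24 and Suclg1 by 1.51 ± 0.29, and Sucla2 was also called against iWAT, at 1.77 ± 0.24 (edgeR adjusted p = 0.0344). The median of those 11 was 0.04. Of 9 tested further ketone body genes, 1 was called higher in BAT than in eWAT, against 2.71% of all genes. It was Slc16a1, the monocarboxylate transporter that carries ketone bodies and lactate. Slc16a1 had 1632 and 1870 CPM in BAT, 1097 and 1478 CPM in iWAT and 632 and 746 CPM in eWAT (log2 difference from eWAT 1.35 ± 0.24, edgeR adjusted p = 0.0355). The median of the 9 was 0.01. Both BAT libraries lay above both eWAT libraries for 2 of the 9, against 26.8% of all genes, and below both for 3, against 28.5%. In BAT against iWAT the median of the 9 was -0.41. None of these 3 lists had a call between iWAT and eWAT, where 0% of all genes were called. The 23 citric acid cycle and pyruvate dehydrogenase genes had 11 called higher in BAT than in eWAT, where 2.71% of all genes were. Their median was 1.23. In BAT against iWAT 1 of the 23 was called higher, where 0.145% of all genes were, and the median was 1.01. Dld, Suclg1, Suclg2 and Sucla2 belong to both this list and the ones before it.

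Replicate 2 of BAT stood above replicate 1 for 27 of the 29 genes, with a median log2 gap of 0.47, whereas 53.3% of all tested genes were higher in it. In eWAT replicate 2 was higher for 23 of the 29 (49.0% of all genes) and in iWAT for 16 (50.3% of all genes). Without BAT replicate 2 none of the 29 genes was called in BAT against eWAT, and the median difference was 0.46. Without BAT replicate 1, 7 were called and the median was 0.91. The summed brown fat and general adipocyte markers were also higher in BAT replicate 2, and the summed macrophage and fibroblast markers lower. Their part in the gap was not tested.

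The authors' deposited table, which covers all 20295 genes and gives its own adjusted p-values, called 16 of the 30 genes higher and 2 lower (Abat and Bcat2) in BAT against eWAT, beside 6.58% higher and 9.05% lower of all genes. For BAT against iWAT the authors' deposited table called 8 higher and 1 lower (Bdh2), beside 2.91% and 5.33% of all genes. For iWAT against eWAT the authors' deposited table called Abat and Bcat2 lower, beside 5.27% of all genes. It called none of the 30 higher, beside 660 of all 20295 genes.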

How the data were processed

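RNA-seq read counts were analysed from 6 libraries of in vitro differentiated adipocytes, 2 per depot. Per the labels' protocols, TRIzol extracts went through Ribo-Zero removal of ribosomal RNA and TruSeq library preparation. Per the submitters' processing notes, reads were aligned with STAR to mm9. Not given in the sources used here were versions, the counting program, strandedness and the treatment of multiply mapped reads. The deposited counts are whole, unnormalized reads per gene, beside the length over which reads were counted. The authors' deposited table of comparisons holds log2 fold changes, log2 values per library, a likelihood ratio score and raw and adjusted p-values, per the file headers, and was used only where it is named. Without strand, overlapping genes cannot be told apart, and Aldh6a1 alone overlapped another gene of the table (Ccdc176, 138 counts in all).

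Genes were filtered with filterByExpr (8563 left out) and fitted with edgeR 4.0.16 (R 4.3.3, TMM factors from 0.907 to 1.05, quasi-likelihood F test, 2-sided, depot as the only term, all 6 libraries together). The biological coefficient of variation common to all genes was 0.251, on 3 residual degrees of freedom. The Benjamini-Hochberg adjustment ran over 11732 genes per contrast, with 0.05 as threshold. The fit was tested on simulated data. CPM used TMM-scaled totals, and CPM per kb divided by the deposited counted length. Total counts were 2889038 to 4807449 per library, and replicates differed by far more than sampling noise (chi-square divided by its degrees of freedom, 16.0 to 19.8). Alternatives were DESeq2 1.42.0, limma 3.58.1 (voom), other scalings and filters, 2-depot fits, a replicate block and leaving out each library. Python 3.11.15 made tables and figures.

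Values are given per library for genes called in any contrast, for the 3 largest absolute differences of each contrast and for genes in a ratio, and other genes by range. The genes and lists were chosen with earlier results of these data known. The 5 promoter motifs that had matches were added after the other 3 had none.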

Additional observations from a re-analysis of the deposited data

How the results depend on the processing

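All 5 called genes kept their direction under all 14 alternatives, and no call reversed. The median of the 29 genes for iWAT minus eWAT changed sign without eWAT replicate 1, to -0.03 from 0.13 with all libraries. Of those 14, the BAT minus eWAT call of Abat passed under 11, Ppm1k and Hibch under 8, Mcee under 7 and Acat1 under 6. For BAT minus eWAT, 5 of the 29 genes were called (758 of all genes). DESeq2 called 12 (1370), no filter on low counts 12 (1937), limma voom 3 (556) and the fit of the 2 depots alone 1 (154). For BAT minus iWAT, 0 of the 29 were called (122 of all genes), against 6 (510) with DESeq2 and 6 (780) with no filter, and voom called 69 of all genes. For iWAT minus eWAT, 0 were called (0 of all genes), against 1 (301) with DESeq2 and 1 (557) with no filter, and voom called 1 and the 2-depot fit 2 of all genes. The cause was not tested, except that 2-depot fits have fewer libraries.

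Leaving out 1 library gave 0 to 7 calls of the 29 genes and 17 to 829 of all genes in BAT minus eWAT. It gave 0 of the 29 and 0 to 94 of all genes in BAT minus iWAT, and 0 of the 29 and 0 to 3 of all genes in iWAT minus eWAT. For BAT minus eWAT none of the 29 was called without BAT replicate 2, eWAT replicate 1 or eWAT replicate 2, 1 without either iWAT library and 7 without BAT replicate 1. A depot left with 1 library was assumed to vary like the others. The median log2 difference of the 29 was 0.46 to 0.91 in BAT minus eWAT, 0.34 to 0.79 in BAT minus iWAT and -0.03 to 0.24 in iWAT minus eWAT.

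Whether replicate numbers pair libraries across depots is not stated, and with 2 numbers it could not be settled from the data. Deviations of same-numbered libraries from their depot means correlated across 11732 genes at 0.448 for BAT and iWAT, 0.412 for BAT and eWAT and 0.556 for iWAT and eWAT. With the replicate block, 22 of the 29 genes (2780 of all genes) were called in BAT minus eWAT, 11 (1225) in BAT minus iWAT and 2 (563) in iWAT minus eWAT. Bdh1, at 3 to 12 counts a library, was too low to be tested. Other scalings moved the median of all genes by less than 0.1 on the log2 scale.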
